A study of Ursus arctos with 12 samples.

Results

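The genes described here are 7 genes through which a cell takes up, activates and reads thyroid hormone, followed in the thigh muscle of brown bears (Ursus arctos) in winter and in summer. They are SLC16A10, DIO2, THRA, THRB, NCOR1, NCOA1 and MED1, found by their symbols. Each of the 7 had a row among the 30249 rows of the count table, and each passed the filter of 30 reads over all libraries that left 17290 genes to test. Vastus lateralis biopsies came from 6 free-ranging bears, 2 to 3 years old, each sampled during hibernation in February and again in the same year during the active period in June. The bears were wild and untreated apart from capture and anaesthesia, so season stands together with every other difference between a fasting, inactive animal in its den and a feeding, moving animal. Bears are named by the numbers in the labels: 1305, 1316, 1317, 1509, 1511 and 1512. A library held 20191068 to 27283155 reads counted on genes in summer (median 23380174.5) and 16742406 to 32140160 in winter (median 22101966.5).

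The thyroid gland releases mostly thyroxine (T4), a prohormone. Transporters in the cell membrane carry T4 and triiodothyronine (T3) into the muscle fibre, and DIO2, a selenoenzyme, removes an iodine from the outer ring of T4 to make T3, the form that the receptors bind tightly. The receptors encoded by THRA and THRB sit on DNA, mostly paired with a retinoid X receptor. Without T3 they hold corepressors such as NCOR1, which keep the gene off through a histone deacetylase. With T3 they release the corepressor and take up coactivators such as NCOA1 and, through MED1, the Mediator complex that connects them to RNA polymerase. In muscle the hormone is known for its effects on relaxation speed, fibre type, heat production and fuel use.

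Levels are log2 CPM, read counts scaled to library size and by edgeR's TMM method, with a prior count of 2. Fold changes are winter over summer from the quasi-likelihood test of edgeR, with p-values adjusted by Benjamini and Hochberg's method over all 17290 genes, and a gene was called at an adjusted p below 0.05. Since the libraries pair by bear, the within-bear change was also tested by a two-sided exact sign-flip permutation test, whose smallest p with 6 bears is 0.03125. A log2 CPM takes no account of gene length, so levels were compared between seasons for a gene and never between genes. The counts are per gene, so that the T3-binding form of THRA and its splice form that does not bind T3 cannot be separated, nor the forms of THRB.

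THRA and NCOA1 rose in winter, DIO2 fell, and THRB, SLC16A10, NCOR1 and MED1 were not called. The 2 of 7 that rose stand beside 19.6% of all genes tested that were called higher, and the 1 that fell beside 19.9% called lower. In either direction 3 of 7 were called, against 39.5% of all genes. The counts of called genes in the lists below stand beside these same shares. At the stricter limits of an adjusted p below 0.01 and a fold above 1.3 or below 0.77, THRA and NCOA1 passed and DIO2 did not, against 24.0% of all genes. The median log2 fold change of the 7 was −0.052 and that of all genes −0.0021. The median absolute change was 0.460 in both. The shares called were near those of all genes, so what follows describes the single genes and not a shift of the group.

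**Figure D1:**
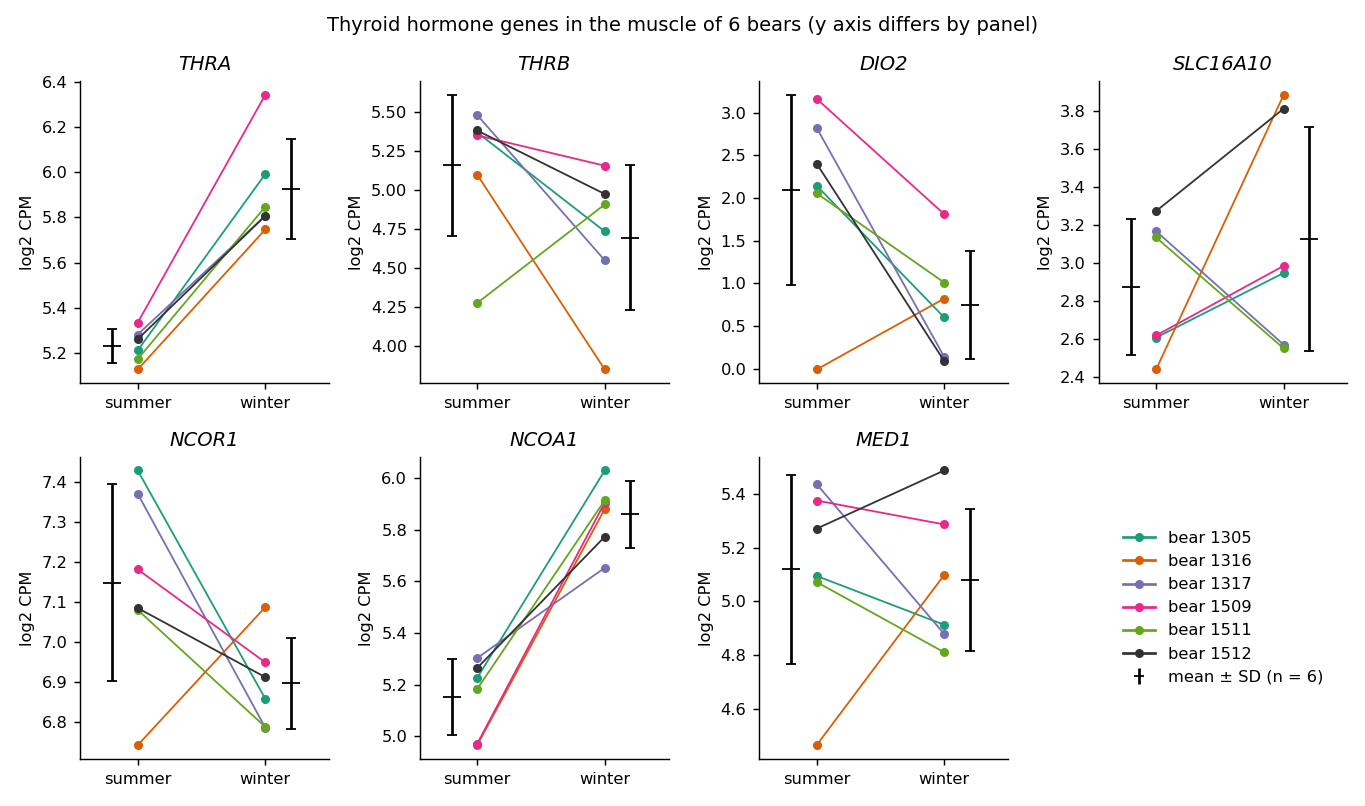
Level of each of the 7 genes in log2 CPM (y axis, its range differing by panel) in summer and winter, with a line for each of the 6 bears and the season mean with its SD beside the points. All lines rise for THRA and NCOA1, from means of 5.23 and 5.15 to 5.92 and 5.86, while the other panels hold lines in both directions.

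Libraries that stood apart touch several of these genes. The summer library of bear 1316 was the lowest of the 6 summer libraries for 6 of the 7 genes, all but THRB. In that library the adipocyte markers ADIPOQ, PLIN1, CIDEC, LEP and CIDEA summed to 534 CPM. The lowest summer library held 17.4 CPM of them, and the summer median was 45.1 CPM. The 5 fibroblast markers summed to 2479 CPM there, the lowest of the season, as were the endothelial (577 CPM) and macrophage (69.1 CPM) sums. Its skeletal muscle fibre sum (188803 CPM) and fast fibre sum (67287.5 CPM) were the highest of all libraries. Its slow fibre sum (12803.4 CPM) was the lowest of all. The winter library of bear 1509 held the highest sum of peripheral nerve markers, 126 CPM against a winter median of 13.4 CPM. The part of these differences in any result was not tested, and calls of the 7 genes that change without these libraries are given with and without them.

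SLC16A10, also called MCT10, carries thyroid hormones and aromatic amino acids across the membrane. Its level ran from 2.44 to 3.27 in summer (median 2.88) and from 2.55 to 3.89 in winter (median 2.97). The winter libraries of bears 1316 and 1512 were the highest of the 12, and the seasons overlapped. The fold was 1.25 (95% interval 0.856 to 1.84, edgeR adjusted p = 0.330), with a rise in 4 of 6 bears and within-bear changes from −0.60 to 1.45 (exact permutation p = 0.5). The gene was not called in any of the 17 alternatives. A fall of the size seen for DIO2 lies outside its interval, whereas a rise as large as that of THRA lies within it.

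Of the other thyroid hormone transporters, SLC7A8 fell and was the only called gene of the 6 tested. SLC7A8, the LAT2 amino acid transporter that also carries thyroid hormones, had levels of 4.81 to 5.59 in summer (median 5.15) and 2.99 to 4.34 in winter (median 3.85). The seasons did not overlap, each bear was lower in winter, and the log2 fold change was −1.31 (SE 0.21, edgeR adjusted p = 0.000287). SLC7A5 and SLC3A2, which form the heterodimer LAT1, were both at 0.09, with 11 to 26 reads a library for SLC7A5. SLCO1C1 had 1 to 18 reads a library and was not called, and SLC17A4 had 0 reads in all 12 libraries and was not tested. The median log2 fold change of the 6 was 0.09.

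DIO2, the enzyme that makes T3 inside the cell, fell to a fold of 0.341 (95% interval 0.179 to 0.650). It was a low count, with 19 to 202 reads in summer (levels −0.01 to 3.16, median 2.27) and 18 to 62 in winter (0.09 to 1.81, median 0.71). The summer libraries of bears 1305, 1317, 1509, 1511 and 1512 held 102 reads or more and lay above every winter library, while that of bear 1316 held 19 reads and lay below all of them. The seasons therefore overlapped through that library. The log2 fold change was −1.55 (SE 0.43, edgeR adjusted p = 0.0117), and 5 of 6 bears fell, by as much as 2.69 in bear 1317, whereas bear 1316 rose by 0.83 (exact permutation p = 0.0625). Without the summer library of bear 1316, a removal chosen after seeing the data, the log2 fold change was −1.77 (edgeR adjusted p = 0.00112). Without both libraries of bear 1317 it was −1.32 and the gene was no longer called (edgeR adjusted p = 0.0541).

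The other deiodinases were close to absent from the reads. DIO1, which works mostly in liver, kidney and thyroid, had 1 to 7 reads a library and was not called. DIO3, which inactivates T4 and T3, had 0 to 5 reads a library and did not reach the filter. Counts this low cannot show a change in either.

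Among genes that act on the DIO2 protein or on T3 inside the cell, USP33 and MARCH6 rose. USP33, a deubiquitinase that returns DIO2 to its active form, rose by a log2 fold change of 0.48 (edgeR adjusted p = 0.0029, higher in 6 of 6 bears). MARCH6, a ubiquitin ligase that marks DIO2 for breakdown, rose by 0.30 (edgeR adjusted p = 0.0270, higher in 6 of 6 bears), a call lost in 6 alternatives, among them those without bear 1305, 1316 or 1509 or without the summer library of bear 1511, with edgeR adjusted p values from 0.0534 to 0.152. WSB1, which marks DIO2 for breakdown as well, and USP20, a second deubiquitinase, had log2 fold changes of 0.11 and 0.08 and were not called. SECISBP2, needed to insert selenocysteine into deiodinases, was at −0.24 (edgeR adjusted p = 0.193). CRYM, a cytosolic protein that binds T3, had a log2 fold change of −0.79 that was not called (edgeR adjusted p = 0.264), with 14 to 34 reads in summer and 2 to 31 in winter. Without the winter library of bear 1509, the highest of all for CRYM, the change was −1.55 and was called (edgeR adjusted p = 0.0117), as it was without both libraries of that bear (0.0204) and with limma voom (0.0410). Over the 8 tested genes of this list, DIO2 included, 2 rose, 1 fell and 5 were not called, with a median of −0.08.

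**Figure D2:**
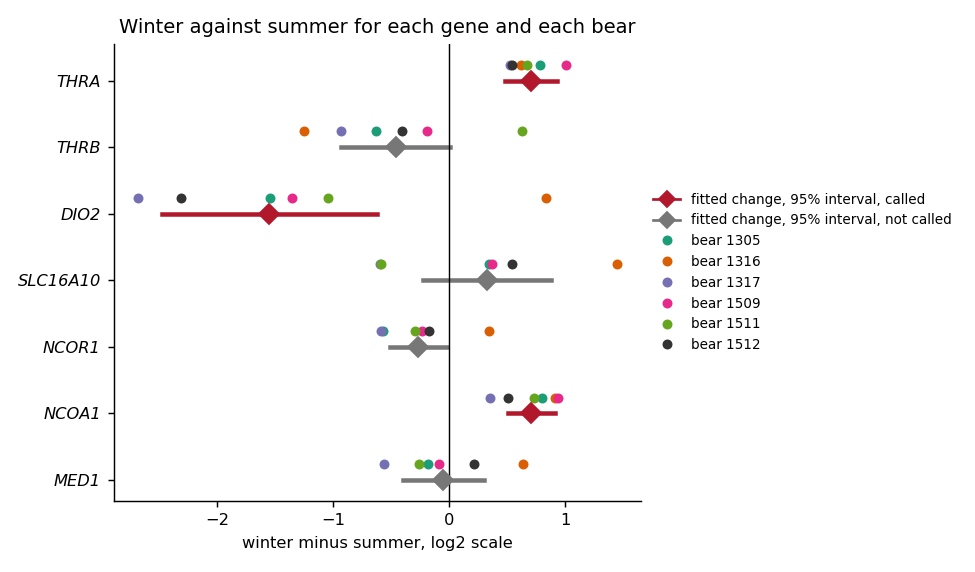
Winter minus summer on the log2 scale (x axis) for each of the 7 genes, with a point for each bear and a diamond for the fitted change with its 95% interval, red where the gene was called. The intervals of THRA and NCOA1 lie above 0 and that of DIO2 below 0, with the point of bear 1316 at 0.83 for DIO2 apart from the other 5 bears.

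THRA, which encodes the receptor isotype that predominates in muscle, rose to a fold of 1.63 (95% interval 1.39 to 1.91). Its level ran from 5.13 to 5.33 in summer (median 5.24) and from 5.75 to 6.34 in winter (median 5.83), highest in bear 1509. The lowest winter library lay above the highest summer library, and each bear rose, by 0.53 to 1.01. The log2 fold change was 0.71 (SE 0.11, edgeR adjusted p = 0.000207, exact permutation p = 0.03125 over the bears, the smallest that 6 bears can give). The gene was called in all 17 alternatives, with log2 fold changes from 0.61 to 0.74. Seasons that did not overlap were found for 2 of the 7 genes, THRA and NCOA1, and for 17.3% of all genes tested. NR1D1, a clock gene whose transcript overlaps that of THRA on the opposite strand, had a log2 fold change of 0.12 (SE 0.32, edgeR adjusted p = 0.792). Its within-bear changes ran from −1.26 to 1.88. The authors counted reads by strand, and the part of NR1D1 reads in the THRA counts was not tested.

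THRB, the receptor gene best known for feedback in the pituitary and action in liver, did not pass the test. The summer libraries ran from 4.28 to 5.48 (median 5.36) and the winter libraries from 3.85 to 5.16 (median 4.82). The lowest winter value was that of bear 1316 and the lowest summer value that of bear 1511, where the next summer library stood at 5.10. The fold was 0.727 (95% interval 0.525 to 1.01, edgeR adjusted p = 0.110), and 5 of 6 bears were lower in winter, by as much as 1.25, while bear 1511 was higher by 0.63 (exact permutation p = 0.15625). Without the summer library of bear 1511, a removal chosen after seeing the data, the log2 fold change was −0.59 and was called (edgeR adjusted p = 0.0255). Without both libraries of bear 1511 it was −0.62 (edgeR adjusted p = 0.0283).

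The balance of reads between the receptor genes moved toward THRA. The log2 ratio of THRA to THRB reads ran from −0.20 to 0.90 in summer and from 0.83 to 1.89 in winter, and only its change is read here, since it also holds the lengths of the transcripts. In summer 5 libraries lay at 0.03 or below and that of bear 1511 at 0.90. The change was 1.15 ± 0.62 (SD, n = 6), a ratio 2.23-fold higher in winter, and it was positive in 6 of 6 bears (exact permutation p = 0.03125, the same after adjustment over the 2 ratios tested). It was 0.042 in bear 1511 and 0.95 to 1.87 in the other 5. With bear 1511 left out the mean change was 1.38, and no test over 5 bears can go below 0.0625.

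The retinoid X receptors are the partners of both receptors on DNA. RXRB rose by a log2 fold change of 0.28 (edgeR adjusted p = 0.0178, higher in 6 of 6 bears), a call lost with library totals (edgeR adjusted p = 0.108) or without bear 1305 (0.0860) or bear 1511 (0.0632). RXRA and RXRG had log2 fold changes of 0.10 and 0.34 and were not called. RXRA was higher in 5 of 6 bears and lower by 0.96 in bear 1509, and RXRG was higher in 4 of 6. Of the 5 receptor genes THRA and RXRB were called and 3 were not, with a median log2 fold change of 0.28.

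NCOR1, the corepressor that binds receptors without T3, lay lower in most bears but did not pass the test. Its level ran from 6.74 to 7.43 in summer (median 7.13) and from 6.79 to 7.09 in winter (median 6.88), so the winter range lay within the summer range. Bear 1316 was the lowest in summer and the highest in winter. The fold was 0.832 (95% interval 0.703 to 0.985, edgeR adjusted p = 0.0774), with 5 of 6 bears lower and bear 1316 higher by 0.35 (exact permutation p = 0.15625). Without the summer library of bear 1316, a removal chosen after seeing the data, the log2 fold change was −0.34 and was called (edgeR adjusted p = 0.0162). Without both libraries of bear 1316 it was −0.37 (edgeR adjusted p = 0.0137).

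NCOR1 works in a complex with the histone deacetylase HDAC3, the scaffold proteins TBL1X and TBL1XR1, GPS2 and CORO2A. TBL1XR1 rose by a log2 fold change of 0.52 (edgeR adjusted p = 0.000854, higher in 6 of 6 bears), while its relative TBL1X fell by 0.35 (edgeR adjusted p = 0.0342, lower in 6 of 6 bears). The TBL1X call was lost without bear 1316, 1317 or 1512 or without the winter library of bear 1509 (edgeR adjusted p = 0.0623 to 0.111). HDAC3 rose by 0.22 (edgeR adjusted p = 0.0446), which a replicate block for the bear put at an adjusted p of 0.0881, and which was lost in 12 of the 17 alternatives, without each of the bears in turn among them. GPS2 had a log2 fold change of −0.05 and was not called, and CORO2A had 1 to 10 reads a library. Of the 7 genes of the complex 2 rose, 1 fell and 4 were not called, with a median of −0.05. Among all genes tested 19.6% were called higher and 19.9% lower.

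NCOA1, or SRC-1, a coactivator that binds receptors carrying T3, rose to a fold of 1.63 (95% interval 1.42 to 1.88). Its level ran from 4.97 to 5.30 in summer (median 5.20) and from 5.65 to 6.03 in winter (median 5.89). The seasons did not overlap, and each bear rose, by 0.35 in bear 1317 to 0.94 in bear 1509. The log2 fold change was 0.71 (SE 0.10, edgeR adjusted p = 9.5e-05, exact permutation p = 0.03125 over the bears), and it was called in all 17 alternatives, with changes from 0.63 to 0.78.

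Its relatives also rose. NCOA2 rose by a log2 fold change of 0.64 (edgeR adjusted p = 0.000353) and NCOA3 by 0.64 (edgeR adjusted p = 0.00498), both in 6 of 6 bears, so that each of the p160 coactivators, NCOA1 to NCOA3, was higher in winter. CREBBP, a histone acetyltransferase that the p160 proteins recruit, rose by 0.72 (edgeR adjusted p = 0.00517), and its close relative EP300 was at 0.22 and was not called (edgeR adjusted p = 0.351).

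Some of the other genes that act with these coactivators fell. KAT2B, or PCAF, an acetyltransferase, fell by a log2 fold change of 0.88 (edgeR adjusted p = 0.00101), and CARM1, an arginine methyltransferase, fell by 0.58 (edgeR adjusted p = 0.0033), both in 6 of 6 bears. PRMT1, another arginine methyltransferase, was at 0.13 and was not called. NCOA6 fell by 0.32 (edgeR adjusted p = 0.0482). With the bear as a replicate block it was at −0.32 with an adjusted p of 0.0580, and its call was lost in 13 of the 17 alternatives, among them leaving out any bear but 1509. Over the 9 coactivator genes 4 rose, 3 fell and 2 were not called, beside 19.6% called higher and 19.9% called lower among all genes tested.

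The reads of NCOR1 fell relative to those of NCOA1 in each bear. The log2 ratio of NCOR1 to NCOA1 ran from 1.78 to 2.21 in summer and from 0.83 to 1.21 in winter, with no overlap. The change was −0.96 ± 0.30 (SD, n = 6), or 0.514-fold, and ran from −1.38 in bear 1305 to −0.57 in bear 1316 (exact permutation p = 0.03125, the same after adjustment over the 2 ratios). Of the single genes only NCOA1 was called. Levels of mRNA do not say how much of either protein sat on the receptors.

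**Figure D3:**
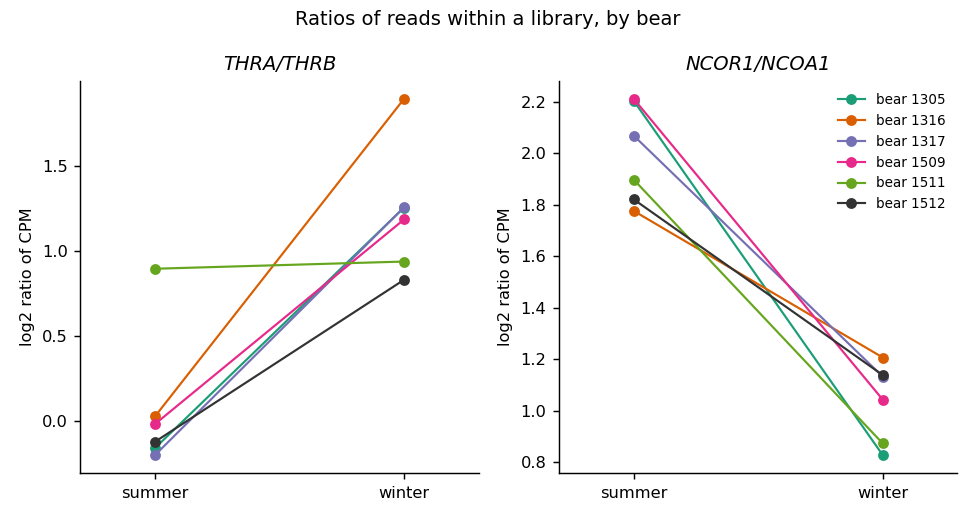
Log2 ratio of reads (y axis, its range differing by panel) of THRA to THRB and of NCOR1 to NCOA1 in summer and winter, with a line for each of the 6 bears. The THRA to THRB line of bear 1511 is nearly flat, from 0.90 to 0.94, while the other 5 rise, and all 6 lines of NCOR1 to NCOA1 fall.

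MED1, the Mediator subunit that nuclear receptors contact, showed no change that could be detected. Its level ran from 4.46 to 5.44 in summer (median 5.18) and from 4.81 to 5.49 in winter (median 5.01), lowest in the summer library of bear 1316. The fold was 0.965 (95% interval 0.758 to 1.23, edgeR adjusted p = 0.824), with 2 bears higher and 4 lower (exact permutation p = 0.8125). Without bear 1317 the log2 fold change was 0.055 in place of −0.052, not called in either. Without the summer library of bear 1316 it was −0.16, again not called.

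Among the 33 Mediator genes tested, MED1 included, 7 rose, 2 fell and 24 were not called, with a median log2 fold change of 0.17. MED13L rose by 0.82 (edgeR adjusted p = 0.000227), MED20 by 0.65 (edgeR adjusted p = 0.000643) and MED12 by 0.58 (edgeR adjusted p = 0.00157). MED13L and MED12 belong to the kinase module that docks on the core of the complex, and MED20 to its head. MED10, MED24, MED18 and the kinase module cyclin CCNC rose too, by 0.31 to 0.47, while MED21 fell by 0.39 and the kinase CDK8 by 0.46. The calls of MED18, CCNC, MED21 and CDK8 were each lost when some single bears were left out, with edgeR adjusted p values from 0.0510 to 0.159 over the alternatives that lost them. Leaving out bear 1316 ended those of MED18, MED21 and CDK8, leaving out bear 1317 those of MED18 and CCNC, and leaving out bear 1512 those of CDK8 and CCNC. Leaving out bear 1305 or 1511 ended those of MED18, MED21 and CDK8, and leaving out bear 1509 that of CCNC. Leaving out a single library ended the MED18 call for winter 1509, summer 1316 and summer 1511, and the CDK8 call for summer 1511. Without the winter library of bear 1509, MED4 (0.56, edgeR adjusted p = 0.0180) and CDK19 (−0.52, edgeR adjusted p = 0.0102) were called as well.

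**Figure D4:**
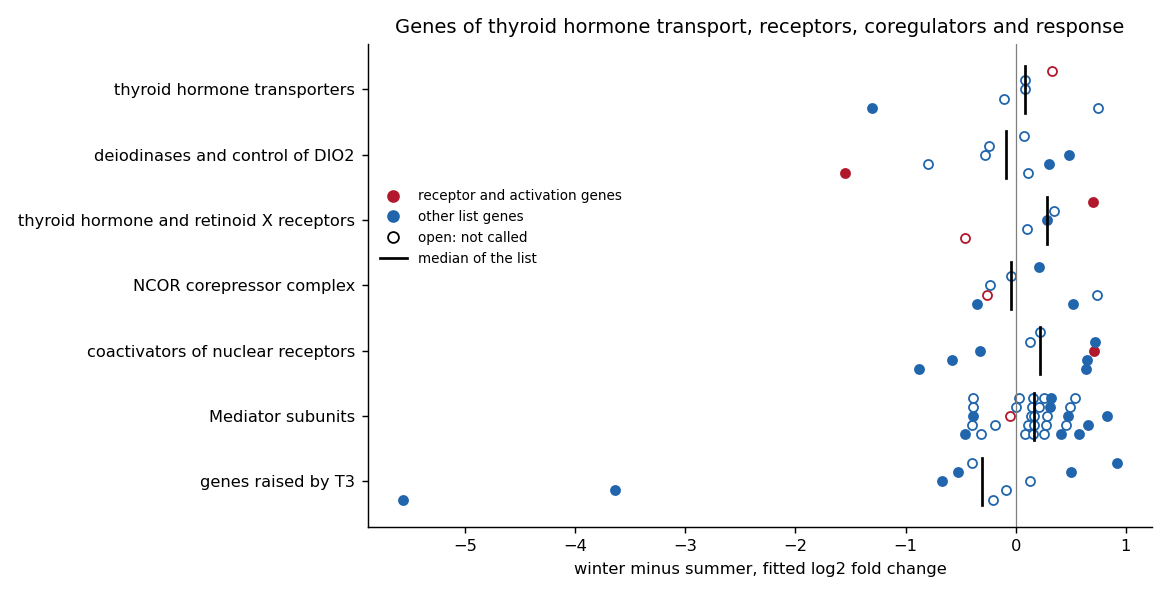
Fitted log2 fold change, winter minus summer (x axis), of each tested gene of 7 lists of thyroid hormone genes, filled where called, in red for the 7 genes of the main description and blue for the others, with a bar at each list's median. Medians lie between −0.30 and 0.28, and the points of THRSP and HR lie far to the left at −5.56 and −3.64.

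Genes known to be raised by T3 moved in both directions, with 2 higher, 4 lower and 4 not called among 10 tested (median −0.30). The shares over all genes tested were 19.6% higher and 19.9% lower. HR, or hairless, a corepressor that is a direct target of the receptors, had 145 to 285 reads a library in summer and fell to 11 to 24 in winter. Its level ran from 2.81 to 3.52 in summer (median 3.17) and from −0.79 to 0.44 in winter (median −0.46). No bear overlapped, and the log2 fold change was −3.64 (SE 0.23, edgeR adjusted p = 8.41e-07), the lowest being −3.86 and the highest −3.54 over the 17 alternatives.

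THRSP, or Spot 14, a regulator of fatty acid synthesis, was counted at 23 to 1990 reads a library in summer, against 3 to 21 in winter. Its level ran from −0.02 to 6.57 in summer (median 1.87) and from −2.23 to 0.43 in winter (median −1.44), so the seasons overlapped. The highest value, a level of 6.57, was that of bear 1316, in the library with the highest adipocyte marker sum, and the next highest summer level was 2.70. The highest winter level, 0.43, was that of bear 1511, in the winter library with the highest adipocyte marker sum (191 CPM). The part of fat cells in this result was not tested. The log2 fold change was −5.56 (SE 1.25, edgeR adjusted p = 0.00315) and −3.06 without the summer library of bear 1316 (edgeR adjusted p = 0.00243), and each of the 6 bears was lower in winter. DESeq2 gave no adjusted p for this gene without the block, and with limma voom it was 0.0498.

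ATP2A1 and ATP2A2, the fast and slow calcium pumps (SERCA1 and SERCA2) that relax the fibre, both fell. ATP2A1 fell by a log2 fold change of 0.53 (edgeR adjusted p = 0.00474) and ATP2A2 by 0.67 (edgeR adjusted p = 0.0144), each in 6 of 6 bears. The ATP2A2 call was lost without bear 1305 (edgeR adjusted p = 0.0575) or bear 1317 (0.0602).

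UCP3, a mitochondrial carrier of muscle, and GPD2, the mitochondrial glycerol phosphate dehydrogenase, rose. The log2 fold change was 0.92 for UCP3 (edgeR adjusted p = 0.00587) and 0.50 for GPD2 (edgeR adjusted p = 0.00517), both in 6 of 6 bears. KLF9, ME1, SLC2A4 and PPARGC1A were not called, with log2 fold changes of −0.21, 0.13, −0.40 and −0.09. MYH7, the slow myosin heavy chain that T3 is known to lower, was itself at −0.68 and not called (SE 0.26, edgeR adjusted p = 0.0511), lower in 6 of 6 bears, whereas a replicate block for the bear called it at −0.66 (adjusted p = 0.0284), as did 7 other alternatives (adjusted p = 0.0027 to 0.0499), among them that without the summer library of bear 1316 (−0.80, edgeR adjusted p = 0.0216).

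**Figure D5:**
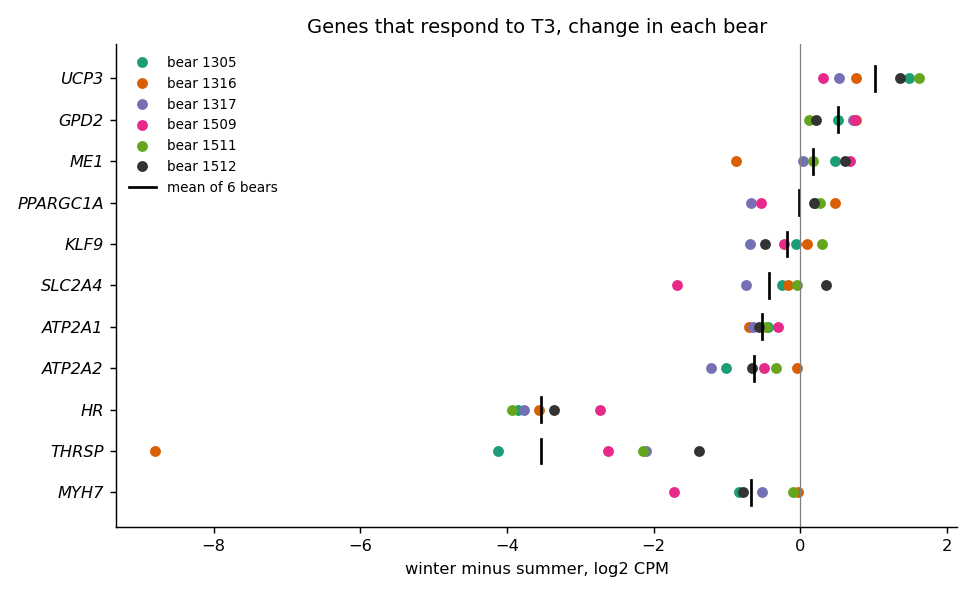
Winter minus summer change in log2 CPM (x axis) of 10 genes known to be raised by T3 and of MYH7, known to be lowered, with a point for each of the 6 bears and a bar at their mean. All points of HR, THRSP, ATP2A1, ATP2A2 and MYH7 lie below 0 and all points of UCP3 and GPD2 above 0, with bear 1316 farthest to the left for THRSP.

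Over all lists without the 7 genes, 17 of 72 tested genes were higher, 11 lower and 44 not called, beside 19.6% called higher and 19.9% called lower among all genes tested. The median log2 fold change of the 72 was 0.13. The seasons did not overlap for 15 of the 72, beside 17.3% of all genes. Leaving out each bear or single library in turn gave 13 to 17 higher and 7 to 13 lower, the 7 being without bear 1305.

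The genes whose log2 CPM followed each of the 7 most closely were named by Pearson's r over the 12 libraries, among 10345 genes with a symbol and a mean of at least 1 log2 CPM. These r values are descriptions and hold the season as well as the scaling and the depth that all genes of a library share. For THRA they were GREB1L (r = 0.963), SSBP2 (0.956) and the coactivator gene NCOA2 (0.952). SSBP2 was also among the 3 nearest to NCOA1 (0.959), after ZNF12 (0.979) and RUNDC3B (0.960). DIO2 was followed by CPOX (0.949), DOCK1 (0.946) and RHOBTB3 (0.939).

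The genes that were not called had neighbours of their own. THRB had the lowest likeness, with NUDT12 (0.846) and EGF (0.829) among its nearest genes. SLC16A10 went with SSH2 (0.908), KCTD20 (0.881) and MYPN (0.874), NCOR1 with IREB2 (0.914), NFYA (0.909) and GANAB (0.907), and MED1 with STK38L (0.943), ZNF407 (0.930) and ZFYVE26 (0.907).

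Markers of the labelled tissue were abundant, and the 8 skeletal muscle fibre markers summed to 116527 to 188803 CPM in summer and 121431 to 160162 CPM in winter. Of these 8, 2 rose and 2 fell, and the slow and fast fibre sums also overlapped between seasons. The fast fibre sum held 5 of its 8 listed markers, since MYH2, MYH4 and MYL1 were not found in the count table. Markers of other cells moved with the season. The 5 fibroblast markers summed to 2479 to 6949 CPM in summer and 237 to 1413 CPM in winter, and 3 of them fell. The 5 endothelial markers summed to 577 to 916 CPM in summer and 381 to 449 CPM in winter, with 4 of them lower, and 3 of 5 macrophage, 2 of 5 smooth muscle and pericyte and 1 of 5 peripheral nerve markers fell. Adipocyte sums overlapped, at 17.4 to 534 and 8.86 to 191 CPM, and LEP alone was called, higher in winter, on 0 to 19 reads a library. ADIPOQ, PLIN1, CIDEC and CIDEA had log2 fold changes of −0.86, −0.93, −2.43 and −1.74 and were not called. No marker that was tested was at 0 in all libraries. In whole muscle, fewer cells of a type and less RNA per cell cannot be told apart, and the part of these other cells in the changes of the 7 genes was not tested.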

How the data were processed

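RNA of 12 vastus lateralis biopsies was sequenced, from 6 bears in summer and in winter. The authors prepared stranded poly-A libraries, aligned the reads to the brown bear assembly ASM358476v1 and deposited raw counts of reads per gene, neither normalized nor filtered. The submitters' processing notes name bcl2fastq 2.20, FastQC 0.11.5, TopHat2 2.1.1, Bowtie2 2.2.9, SAMtools 1.9 and featureCounts 1.6.2. Reads that match several genes or overlapping genes can lower a count, and 14045 of the 30249 rows carry a LOC number. MYH7 and MYH1 were found among these through their RefSeq gene IDs, and MARCHF6 is listed as MARCH6.

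Counts of genes with 30 or more reads over the 12 libraries were scaled by TMM and fitted with season as the only term in edgeR 4.0.16 (glmQLFit, glmQLFTest, R 4.3.3). The script was tested on simulated data. Intervals are 95%. Alternatives, 17 in all, were the bear as a replicate block, DESeq2 1.42.0 with and without it, limma 3.58.1 voom, RLE scaling, library totals, no filter, filterByExpr, each bear left out, and the libraries winter 1509, summer 1316 and summer 1511 left out, of which the last pair was chosen after seeing the data. Ratios were also computed with a prior count of 0.5. Calls at an adjusted p below 0.01 with fold limits of 1.3 and 0.77 were counted too.

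The 7 genes and all lists were chosen with earlier results of these data known. Named genes were the 7, the 3 largest called changes of each list, the list genes needed to account for it, and the 3 genes with the highest r to each of the 7. Some genes that these rules name are not reported here. The study's methods give both libraries of a number as the same animal. After subtraction of the season means, the pair of libraries of a bear correlated at 0.0903 to 0.344, and those of different bears at a median of −0.0634 and at most 0.142, so the ranges overlapped. No library was a copy of another of its own season, the lowest chi-square per gene being 42.3, and libraries of different seasons were not compared in this way. Depth was 16742406 to 32140160 reads a library, so DIO1, DIO3, SLCO1C1 and CORO2A lay near the lower end of what could be measured. Marker sums are TMM-scaled CPM added over the genes of a list.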

Additional observations from a re-analysis of the deposited data

Results flagged for a closer look

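In 5 of the 50 groups of 6 libraries examined, a library lay apart from the rest of its season, its gap to the nearest library divided by the range being above Dixon's 95% critical value for 6 libraries. Chance gives about 1 in 20 groups. The summer library of bear 1511 had the THRB level of 4.28, with the nearest summer library at 5.10. The same library had the log2 ratio of THRA to THRB of 0.90, with the nearest at 0.03. The summer library of bear 1316 had the DIO2 level of −0.0099, with the nearest at 2.06. In the winter library of bear 1316 MED12 stood at 5.92, with the nearest at 5.41. In the winter library of bear 1511 THRSP stood at 0.43, with the nearest at −1.40. Not every gene described above was examined in this way. Outside the groups examined, the winter library of bear 1509 stood at 4.61 for RXRA, with the nearest at 5.48. For SLC2A4 that library stood at 4.20, with the nearest at 5.18. All levels are log2 CPM.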

How the results depend on the processing

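THRA and NCOA1 stayed called and higher in all 17 alternatives. With the bear as a replicate block, THRA changed by 0.69 (adjusted p = 0.000458), NCOA1 by 0.71 (0.000643), DIO2 by −1.44 (0.0118), THRB by −0.47 (0.0912), SLC16A10 by 0.26 (0.424), NCOR1 by −0.25 (0.145) and MED1 by −0.041 (0.845), so the block changed no call among the 7. Among list genes it ended the calls of HDAC3 and NCOA6 and added those of MED8 (adjusted p = 0.0362), MED9 (0.0467) and MYH7 (0.0284). Leaving out bears or libraries gave adjusted p values of 0.0255 to 0.286 for THRB, 0.00112 to 0.0541 for DIO2 and 0.0137 to 0.241 for NCOR1. The 1 gene of the 7 called lower became 0 to 2 when bears or libraries were left out, and 0 under the stricter limits. List genes called lower ranged from 7 to 13. No value reversed while called. Library totals moved the median of all genes to −0.081. DIO2 rested on 18 to 202 reads a library, so its size is less certain than that of THRA.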
